A study of Mus musculus with 10 samples.

Results

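The insulin-like growth factor (IGF) axis was taken as 10 genes, chosen by name: the ligand genes Igf1 and Igf2, the receptor genes Igf1r and Igf2r, and the binding protein genes Igfbp2, Igfbp3, Igfbp4, Igfbp5, Igfbp6 and Igfbp7. All 10 are among the 24062 genes counted in each pancreas library. RNA of whole pancreas from 5 wild type (WT) mice and 5 KSR23 mice was compared at postnatal day 5 (P5), with 1 library per mouse, all on the C57BL/6 strain. KSR23 mice carry the R23 cassette for both subunits of IL-23, placed in the ROSA26 locus behind a floxed STOP signal, and Cre recombinase under the keratin 14 promoter, which opens the cassette in keratinocytes. The transgene is thus aimed at the skin and not at the pancreas. Krt14, the gene of keratin 14, had 30 to 128 counts in the pancreas libraries. The controls are labelled wild type, and the study usually took littermates. The question for the axis was how the RNAs of a growth factor system stand in the pancreas of pups whose growth is impaired.

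IGF1 and IGF2 are small secreted hormones related to insulin. Both signal through the IGF1 receptor, a tyrosine kinase, while the IGF2 receptor takes IGF2 into the cell for breakdown in lysosomes. Most IGF outside cells is held by IGF binding proteins, which carry the hormone, lengthen its life and keep it from the receptor until proteases release it. IGFBP7 stands apart in this family, since it binds IGFs weakly and also binds insulin. Growth hormone drives Igf1 transcription in liver and in other tissues through JAK2 and STAT5, and in neonatal tissues the ligands come largely from mesenchymal cells.

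In the pancreas of KSR23 mice, Igf1 RNA was 41.4% lower than in WT mice, Igfbp5 RNA was 29.7% lower and Igf2 RNA was 16.4% lower, while Igfbp7 RNA was 25.5% higher. The other 6 genes, both receptor genes among them, did not pass the test. Thus 4 of the 10 genes were called, 1 higher and 3 lower, at an adjusted p under 0.05 (quasi-likelihood F test of edgeR, Benjamini-Hochberg adjustment over all 13882 genes tested). The background was high: the same rule called 31.0% of all genes tested, 16.2% higher and 14.8% lower in KSR23 mice. The share called in the axis, 40.0%, is near this background, and the median size of the log2 fold change was 0.20 for the 10 genes and 0.22 for all genes. What follows is therefore an account of which genes of the axis moved and by how much, and not of an axis that stood apart.

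The stretches before the RefSeq start sites of the binding protein genes that moved in opposite directions are printed here, since they differ in base composition. They are on the GRCm38.p6 build, written 5′ to 3′ on the strand of the gene, and stop where the annotated exon begins. Capitals mark matches to the GC box GGGCGG on either strand, the letters that the Sp1 family of activators is known to bind. The Igfbp5 stretch is chr1:72874885-72875115 on the minus strand, and the Igfbp7 stretch is chr5:77408046-77408295 on the minus strand.
Igfbp5: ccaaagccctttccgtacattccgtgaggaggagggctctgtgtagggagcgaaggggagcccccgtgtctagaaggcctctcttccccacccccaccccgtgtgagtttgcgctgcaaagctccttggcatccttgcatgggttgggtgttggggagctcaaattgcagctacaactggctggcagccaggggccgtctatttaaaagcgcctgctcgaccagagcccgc
Igfbp7: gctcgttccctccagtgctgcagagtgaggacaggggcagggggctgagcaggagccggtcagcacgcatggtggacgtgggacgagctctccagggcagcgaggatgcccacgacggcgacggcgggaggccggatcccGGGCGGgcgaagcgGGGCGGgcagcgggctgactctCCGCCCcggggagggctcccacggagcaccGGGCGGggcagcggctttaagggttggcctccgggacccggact
The Igfbp7 window holds 4 GC boxes and the Igfbp5 window holds none. Among genes not called, Igf2r has 3, Igf1r has 2 and the windows of Igfbp2 have 3 and 0. Those of Igfbp3, Igfbp4 and Igfbp6 hold none. Of the other genes called lower, Igf1 has none in its window and Igf2 has 0 to 2 in its windows. Whether GC boxes go with the changes was not tested.

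Over the 250 bases before each RefSeq start, G and C made up 74% of the Igfbp7 window and 58.8% of the Igfbp5 window. The 10 genes have 14 such windows, and 6 of the 14 hold a GC box, which 32.7% of the 32851 mouse windows of this length do. The STAT consensus TTCNNNGAA, to which STAT5 and STAT3 are known to bind, was in 0 of the 14 windows and in 7.02% of all windows. At that share, 14 windows are too few for a 0 to show a lack of the motif, and sequence farther away was not searched. Some of the RefSeq starts, those of Igf1 and Igf1r among them, did not match the start of a GENCODE transcript. The TATA box letters TATAAA were on the gene's own strand before Igfbp4 and on the opposite strand before Igfbp6, and 12.4% of all windows hold them on either strand. The STAT and GC box searches also took both strands. The RefSeq window for Igf1 is not printed, because all of its 250 bases lie in annotated exons, within the span of the Igf1 gene. These matches describe letters in short windows, and no binding was measured.

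Gene counts summed to 26830235 to 33189132 per WT library and to 16715976 to 57784136 per KSR23 library, of which replicate 3 was the smallest. Levels are given as CPM (counts scaled to a common library size, here by the TMM method), and errors are SD over 5 mice. A level of 3 counts, the floor used here, lay between 0.0536 and 0.168 CPM, and the 10 genes all lay far above it. Il23a, which encodes the subunit specific to IL-23, had 1 to 9 counts in the WT libraries and 21 to 48 in the KSR23 libraries. By this gene no library went against its label. Il12b, the gene of the other IL-23 subunit, overlapped between the groups at low counts. It had 0, 7, 1, 2 and 0 counts in WT libraries 1 to 5 and 13, 3, 3, 9 and 7 in KSR23 libraries 1 to 5. Alignments to more than 1 place made up 49.64 to 53.73% of all alignments in WT mice and 38.49 to 42.46% in KSR23 mice, and their part in the results was not tested. Reg3b, a gene of the pancreatic stress response, stood at 691.6 and 729.2 CPM in WT replicates 1 and 2 and at 4.732 to 14.58 CPM in the other WT mice. In KSR23 mice it stood at 14210 to 29260 CPM. Calls of the axis and pathway genes reported here that were lost without those 2 libraries are given with the gene. In RNA of whole tissue, fewer cells of a type and less RNA per cell cannot be told apart.

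The ligand genes were both lower in KSR23 mice. Igf1 (chromosome 10, 87858265 to 87937042, plus strand, GRCm38) encodes the ligand that carries most growth hormone action after birth. Its levels were 165.1, 191.9, 195.6, 191.8 and 170.0 CPM in WT mice 1 to 5, and 105.7, 118.9, 116.6, 110.5 and 84.45 CPM in KSR23 mice 1 to 5. The groups were separated by a wide gap: the highest KSR23 mouse lay well under the lowest WT mouse. The mean went from 182.9 ± 14.2 to 107.2 ± 13.7 CPM (SD, n = 5 each; p = 0.00794 in a two-sided exact permutation test, the lowest value possible with 5 mice a group). The log2 fold change was -0.77 (standard error 0.0859, 95% interval -0.95 to -0.59, adjusted p = 1.89e-06, edgeR). By its p it stood 317th among the genes tested. It stayed called in 20 of 20 other settings, with a log2 fold change between -0.81 and -0.67. The 8 coding transcripts of Igf1 run from 510 to 7052 bases, and the counts do not tell them apart.

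Igf2 (chromosome 7, 142650766 to 142666816, minus strand) encodes the main fetal ligand, is expressed from the paternal copy, and in rodents declines after birth. The WT mice had 265.1, 220.3, 242.4, 230.5 and 252.7 CPM and the KSR23 mice 213.9, 230.5, 197.2, 204.9 and 166.4 CPM. The groups overlapped: 4 of 5 KSR23 mice lay under the lowest WT mouse, and KSR23 replicate 2 lay within the WT range. The means were 242.2 ± 17.7 and 202.6 ± 23.7 CPM (SD, n = 5 each; two-sided exact permutation test, p = 0.0238), and the log2 fold change was -0.26 (standard error 0.0804, 95% interval -0.43 to -0.09, adjusted p = 0.0211, edgeR). This call was fragile. It was lost with libraries scaled by their total alone (-0.16, adjusted p = 0.184), without WT replicate 1 (-0.22, adjusted p = 0.0558), without KSR23 replicate 5 (-0.19, adjusted p = 0.0542) and without both WT mice of high Reg3b (-0.26, adjusted p = 0.0622), all in edgeR. Of the 75-base windows of its longest coding transcript, 24.2% were unique to Igf2, the rest being shared with the annotated read-through gene Gm49394. Gm49394 is not among the genes counted, so whether this sharing took any reads from Igf2 cannot be seen from the counts. Igf2os, which shares exon bases with Igf2 on the other strand, was at 0.2222 ± 0.226 CPM in WT and 0.2285 ± 0.141 CPM in KSR23 mice. For the other 9 genes this share was at least 99.1%.

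Beside Igf2 on chromosome 7 lie H19 and Ins2. H19, the maternally expressed noncoding RNA of the same imprinted cluster, lies 72622 bases away and had 84.38 ± 3.98 CPM in WT and 93.17 ± 14.1 CPM in KSR23 mice (SD over 5 mice; log2 fold change 0.14, adjusted p = 0.22 in edgeR), which is not a call. Ins2, an insulin gene 11839 bases away, fell from 4210 ± 677.0 to 2498 ± 269.0 CPM (log2 fold change -0.75, adjusted p = 8.22e-05, edgeR). The ligands were also set against each other. There were 1.15 to 1.61 counts of Igf2 for each count of Igf1 in the WT mice and 1.69 to 2.02 in the KSR23 mice, so that the KSR23 range lay above the WT range. This ratio follows from the Igf1 and Igf2 values above, is not adjusted for transcript length, and was not tested by itself.

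**Figure D1:**
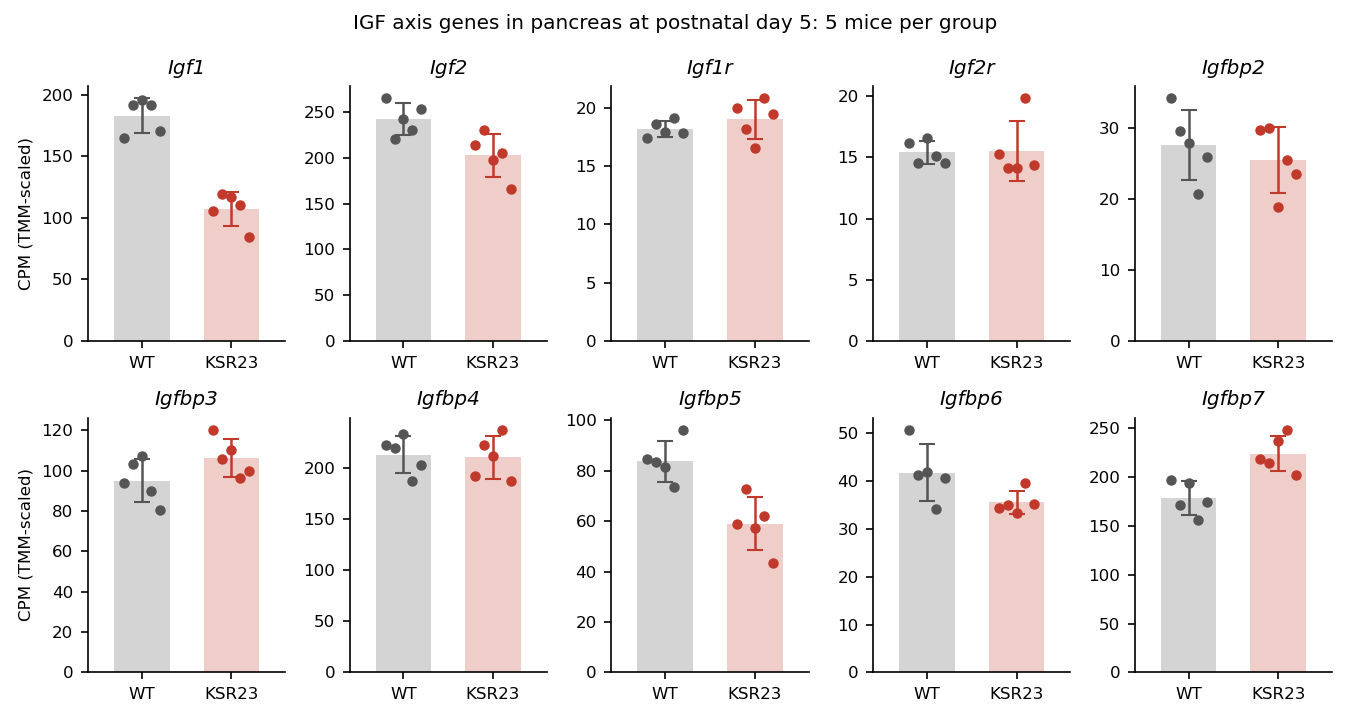
Level of each of the 10 IGF axis genes in CPM (y axis, linear from 0, with its own scale per gene) in WT (grey) and KSR23 (red) pancreas at P5. Points are mice, bars are means and error bars are SD (n = 5 each). The points of the groups are separated for Igf1, Igfbp5 and Igfbp7 and overlap for the other 7 genes.

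The receptor genes were low and did not pass the test. Igf1r (chromosome 7, 67952827 to 68233668, plus strand) encodes the receptor that carries the growth signal of both ligands. It ranged from 17.45 to 19.14 CPM in WT mice and from 16.56 to 20.84 CPM in KSR23 mice, with means of 18.2 ± 0.659 and 19.01 ± 1.68 CPM (SD, n = 5 each). The log2 fold change was 0.07 (95% interval -0.11 to 0.24, adjusted p = 0.577, edgeR). Igf2r (chromosome 17, 12682406 to 12769664, minus strand) encodes the receptor that clears IGF2 and also sorts lysosomal enzymes. The means were 15.41 ± 0.952 CPM in WT and 15.55 ± 2.45 CPM in KSR23 mice, with a log2 fold change of 0.02 (95% interval -0.20 to 0.23, adjusted p = 0.923, edgeR). KSR23 replicate 4 stood at 19.84 CPM against 14.1 to 15.3 CPM in the other KSR23 mice, and the log2 fold change was -0.09 without it. Airn, the noncoding RNA that runs through Igf2r on the opposite strand, had 3.359 ± 0.775 and 3.414 ± 0.611 CPM.

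Among the binding proteins, Igfbp5 fell and Igfbp7 rose. IGFBP5, which binds the extracellular matrix and is made by mesenchymal and muscle cells, is encoded on chromosome 1 (72857932 to 72874884, minus strand). Igfbp5 levels were 84.51, 83.38, 81.31, 73.67 and 96.32 CPM in WT mice and 59.04, 72.84, 57.23, 62.0 and 43.58 CPM in KSR23 mice. The groups did not overlap, although KSR23 replicate 2 lay close to WT replicate 4. The means were 83.84 ± 8.16 and 58.94 ± 10.5 CPM (SD, n = 5 each; two-sided exact permutation test, p = 0.00794), with a log2 fold change of -0.51 (standard error 0.105, 95% interval -0.73 to -0.29, adjusted p = 0.0013, edgeR). It stayed called in 20 of 20 other settings, between -0.60 and -0.42.

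IGFBP7 is a secreted protein of vessel walls and stroma, encoded on chromosome 5 (77349240 to 77408041, minus strand). Igfbp7 levels were 197.2, 170.7, 193.7, 155.6 and 174.7 CPM in WT mice and 217.8, 214.3, 236.2, 248.2 and 202.3 CPM in KSR23 mice. No KSR23 mouse fell within the WT range, and the nearest pair, WT replicate 1 and KSR23 replicate 5, differed little. The means were 178.4 ± 17.2 and 223.8 ± 18.3 CPM (SD, n = 5 each; two-sided exact permutation test, p = 0.00794), with a log2 fold change of 0.33 (standard error 0.0761, 95% interval 0.17 to 0.49, adjusted p = 0.00337, edgeR). In 20 of 20 other settings it stayed called, between 0.28 and 0.42. It shares 85 exon bases with Polr2b on the other strand, and the library kit does not mark strand. Polr2b, a subunit of RNA polymerase II, was at 44.66 ± 2.22 and 49.22 ± 1.6 CPM and was not called (log2 fold change 0.14, adjusted p = 0.102, edgeR). For each count of Igfbp5 there were 1.81 to 2.38 counts of Igfbp7 in WT mice and 2.94 to 4.64 in KSR23 mice.

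Igfbp6, whose protein prefers IGF2, was lower on average but was not called. It ranged from 34.2 to 50.79 CPM in WT mice and from 33.4 to 39.71 CPM in KSR23 mice, and the groups overlapped. The log2 fold change was -0.23 (standard error 0.09, 95% interval -0.42 to -0.04, adjusted p = 0.0587, edgeR). Its call turned with small changes: the adjusted p was 0.017 without WT replicate 4, 0.0393 without KSR23 replicate 4, 0.038 with upper quartile scaling and 0.0495 in DESeq2. Igfbp6 (chromosome 15, 102144362 to 102149511, plus strand) is thus near the threshold on either side.

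Igfbp3, the main carrier of IGFs in serum (chromosome 11, 7206086 to 7213923, minus strand), was at 95.08 ± 10.5 CPM in WT mice and at 106.5 ± 9.42 CPM in KSR23 mice. Its log2 fold change of 0.16 did not pass the test (95% interval -0.01 to 0.33, adjusted p = 0.14, edgeR), except with libraries scaled by their total alone (0.26, adjusted p = 0.0381). Igfbp2 (chromosome 1, 72824503 to 72852474, plus strand), a fetal binding protein, was at 27.72 ± 4.95 and 25.58 ± 4.64 CPM, with a log2 fold change of -0.11 (95% interval -0.38 to 0.16, adjusted p = 0.552, edgeR). Without both WT mice of high Reg3b its sign turned, to 0.05. Igfbp4 (chromosome 11, 99041244 to 99054392, plus strand), whose protein inhibits IGF action until it is cleaved, was at 212.6 ± 18.0 and 210.1 ± 20.8 CPM. Its log2 fold change of -0.02 was not called either (95% interval -0.18 to 0.14, adjusted p = 0.887, edgeR), and its sign turned with libraries scaled by their total alone, to 0.08. The sign of Igfbp4 also turned without both WT mice of high Reg3b.

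Some of the genes are neighbours. Igfbp2 and Igfbp5 lie tail to tail on chromosome 1 with 5457 bases between them, and of this pair Igfbp5 passed the test and Igfbp2 did not. Whether their changes differ from each other was not tested. Igfbp3 lies 3539 bases from Igfbp1, the binding protein that insulin restrains in liver. Igfbp1 was nearly silent, with 0 counts in all 5 WT libraries and 2, 1, 0, 0 and 15 counts in KSR23 mice 1 to 5. It did not enter the test, and only KSR23 replicate 5 exceeded the floor of 3 counts.

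**Figure D2:**
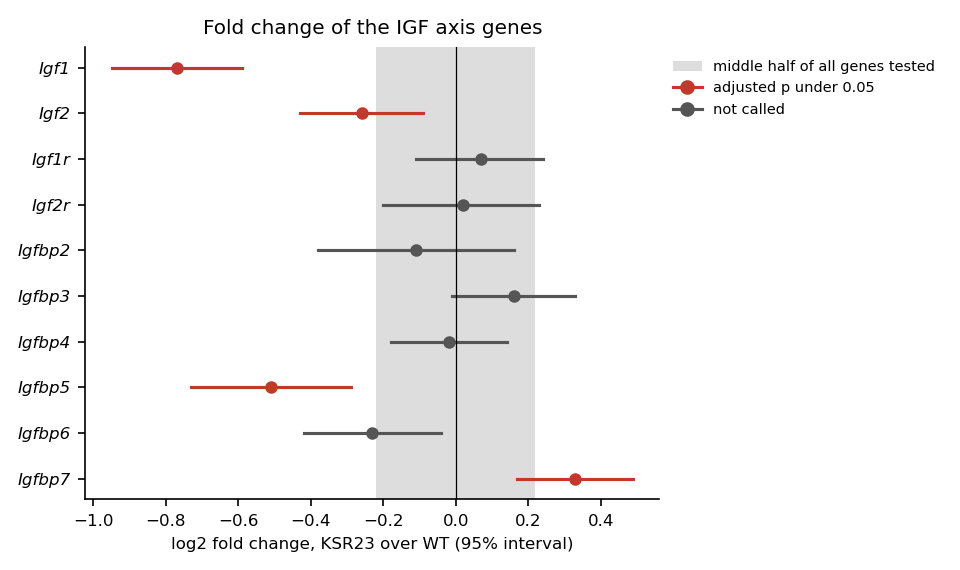
Fitted log2 fold change of each IGF axis gene, KSR23 over WT, with its 95% interval from edgeR (x axis, log2 scale). Red marks the 4 genes with an adjusted p under 0.05, and the shaded band spans the interquartile range of all 13882 genes tested. Igf1 at -0.77 lies farthest from 0, and Igf1r, Igf2r and Igfbp4 lie close to 0.

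In all, 3 of the 10 genes (Igf1, Igfbp5 and Igfbp7) had no overlap between the groups, against 19.4% of all genes tested. The median log2 fold change of the 10 genes was -0.06, and that of all genes tested was -0.01. Scaling by the library total alone moved the split of all genes from 2250 higher and 2049 lower to 3075 higher and 1161 lower, and moved their median log2 fold change from -0.01 to 0.09. Igf1, Igfbp5 and Igfbp7 kept their direction and call under that scaling. Without KSR23 replicate 3, the smallest library, the axis again had 4 calls, 1 higher and 3 lower.

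Levels of different genes were compared per kilobase (kb) of the longest coding transcript. In WT mice Igfbp7 was highest at 149 ± 14.3 CPM per kb, followed by Igfbp4 at 55.5 ± 4.7 and Igf2 at 51.3 ± 3.75. Then came Igfbp3 at 39.3 ± 4.36, Igfbp6 at 37.6 ± 5.32, Igf1 at 25.9 ± 2.01, Igfbp2 at 21.2 ± 3.79 and Igfbp5 at 14.0 ± 1.36 CPM per kb. The receptor genes were lowest, Igf2r at 1.73 ± 0.107 and Igf1r at 1.6 ± 0.0578 CPM per kb. Neighbours whose WT ranges overlapped, so that their order is not settled, were Igfbp4 and Igf2, Igfbp3 and Igfbp6, Igf1 and Igfbp2, Igfbp2 and Igfbp5, and Igf2r and Igf1r. In KSR23 mice Igf1, at 15.2 ± 1.95 CPM per kb, went from rank 6 to rank 7, behind Igfbp2 at 19.6 ± 3.55, with ranges that overlapped. Igfbp3, at 44.0 ± 3.89, went from rank 4 to rank 3, ahead of Igf2 at 42.9 ± 5.02, again with overlapping ranges. With the length of all exons in place of the longest transcript, Igfbp6 ranked above Igfbp3 in WT mice, and Igf2 stayed above Igfbp3 in KSR23 mice. Reads were primed at the poly(A) tail and amplified, and transcripts of other lengths would move these levels.

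**Figure D3:**
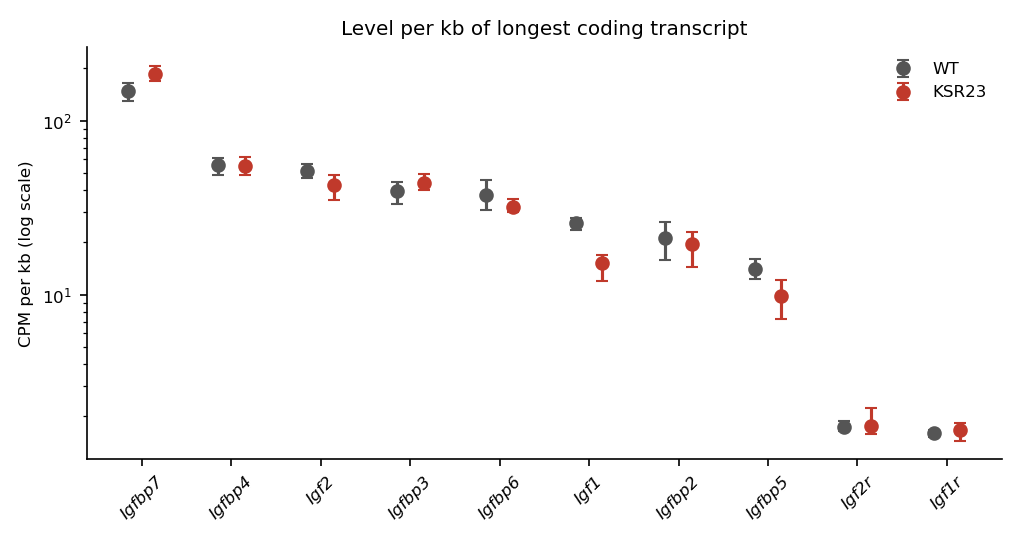
Level per kb of the longest coding transcript (y axis, CPM per kb, log scale) for the 10 IGF axis genes, ordered by the WT mean. Points are means of 5 mice and bars run from the lowest to the highest mouse in WT (grey) and KSR23 (red). The receptor genes lie at or under 2.23 CPM per kb and the ligand and binding protein genes between 7.26 and 207.

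The summed level of the axis overlapped between the groups, while the shares of some genes did not. The 10 genes together made up 1018 to 1158 CPM in WT mice and 876.6 to 1065 CPM in KSR23 mice, and the 6 binding protein genes 561.3 to 685.0 and 591.8 to 708.8 CPM. Of the counts on the 10 genes, Igf1 held 16.7% ± 1.69 in WT and 10.6% ± 0.74 in KSR23 mice (SD, n = 5 each). Igfbp7 held 16.2% ± 0.784 and 22.3% ± 1.39. The shares of Igf1, and those of Igfbp7, did not overlap between the groups. For each count of Igf1 there were 0.47 to 0.57 counts of Igfbp3 in WT mice and 0.872 to 1.18 in KSR23 mice. These shares and ratios rest on the same counts as the tests above and were given no test of their own.

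Other genes of the IGF pathway were read from 6 lists of 87 genes, 81 of which could be tested. In KSR23 mice 17 of the 81 were higher, 12 were lower and 52 were not called, or 35.8% called, again near the background of 31.0%. Socs3, Sh2b2 and Pappa2 had the log2 fold changes farthest from 0. Log2 fold changes here come from the same edgeR fit, and adjusted p-values are over all 13882 genes.

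In the list of other IGF system genes, 1 was higher, 1 was lower and 5 of the 7 tested were not called, with a median log2 fold change of -0.02. Igfals encodes the acid-labile subunit, which joins IGF and its binding protein into the large complex of serum. It fell from 14.79 ± 1.76 to 10.21 ± 1.17 CPM without overlap (log2 fold change -0.53, adjusted p = 0.00132, edgeR). Igf2bp2, which encodes an RNA binding protein that holds Igf2 and other mRNAs, rose from 25.85 ± 3.6 to 41.66 ± 4.37 CPM without overlap (log2 fold change 0.69, adjusted p = 2.94e-05, edgeR). The insulin receptor gene Insr was at 7.329 ± 0.57 and 6.878 ± 0.721 CPM and was not called (log2 fold change -0.09, adjusted p = 0.574, edgeR).

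Of the proteases that cleave IGF binding proteins and the inhibitors of those proteases, 2 were higher, 2 were lower and 5 of the 9 tested were not called, with a median log2 fold change of 0.14. Htra3, a secreted serine protease, rose from 73.79 ± 9.61 to 100.3 ± 9.14 CPM (log2 fold change 0.44, adjusted p = 0.00101, edgeR). Stc2, whose protein blocks the pappalysins, rose from 8.164 ± 1.04 to 12.5 ± 2.6 CPM (0.62, adjusted p = 0.00262, edgeR). Pappa2, a pappalysin that cleaves IGFBP3 and IGFBP5, fell from 1.94 ± 1.07 to 0.8791 ± 0.295 CPM (-1.16, adjusted p = 0.0189, edgeR), at low counts and with overlapping mice. This call was lost without WT replicate 3 (adjusted p = 0.0766, edgeR). Adam12, a membrane protease that cleaves the same binding proteins, fell from 12.23 ± 1.27 to 7.573 ± 2.1 CPM (-0.68, adjusted p = 0.00212, edgeR).

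In growth hormone receptor signalling, 3 genes were higher, 1 was lower and 5 of the 9 were not called, with a median log2 fold change of 0.15. Ghr, the growth hormone receptor itself, was 128.1 ± 10.1 CPM in WT and 113.3 ± 4.12 CPM in KSR23 mice, with overlapping mice (log2 fold change -0.18, adjusted p = 0.0479, edgeR). This call was lost in 11 of 20 other settings, with an adjusted p of up to 0.39. Socs3, a feedback inhibitor of STAT3 and of growth hormone signals, rose from 10.19 ± 1.25 to 63.76 ± 18.0 CPM, 6.26-fold by the means (log2 fold change 2.65, adjusted p = 3.8e-10, edgeR). Socs2, the inhibitor that limits growth hormone action in vivo, rose from 18.65 ± 1.35 to 25.88 ± 2.35 CPM (0.47, adjusted p = 0.000329, edgeR), and Ptpn1, a phosphatase of the insulin receptor and of JAK2, rose by 0.64 on the log2 scale (adjusted p = 3.81e-06, edgeR). Jak2, Stat5a and Stat5b, the kinase and factors that carry the signal to Igf1, were not called, with log2 fold changes of 0.15, -0.01 and 0.14.

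Of the adaptors that dock on the IGF1 and insulin receptors, 5 were higher, 1 was lower and 4 of the 10 tested were not called, with a median log2 fold change of 0.15. Irs2, a main docking protein for PI3K, rose from 13.23 ± 2.23 to 23.28 ± 4.75 CPM (log2 fold change 0.82, adjusted p = 0.000126, edgeR), whereas Irs1 was at 6.544 ± 1.25 and 6.862 ± 1.58 CPM and was not called. Sh2b2, an adaptor of the insulin receptor and JAK2, rose from 1.731 ± 0.504 to 6.053 ± 1.76 CPM (1.81, adjusted p = 1.25e-05, edgeR). Sh2b1 and Shc1 rose by 0.37 and 0.24 on the log2 scale (adjusted p = 0.00575 and 0.0106, edgeR). Grb10, an imprinted inhibitor of both receptors and the most abundant gene of this list, fell from 216.2 ± 17.2 to 177.9 ± 15.0 CPM (-0.28, adjusted p = 0.00704, edgeR), but not when libraries were scaled by their total alone (-0.19, adjusted p = 0.105, edgeR).

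Further down, the PI3K-AKT-mTORC1-FOXO branch had 3 higher and 4 lower genes and 23 of 30 not called, with a median log2 fold change of -0.07. Ddit4, an inhibitor of mTORC1, rose from 18.91 ± 1.16 to 29.35 ± 4.36 CPM (log2 fold change 0.64, adjusted p = 6.94e-05, edgeR), and the kinase gene Akt2 rose from 47.27 ± 3.62 to 65.23 ± 5.5 CPM (0.47, adjusted p = 0.000125). Tsc2, another brake on mTORC1, rose by 0.35 on the log2 scale (adjusted p = 0.0111, edgeR), a call lost without both WT mice of high Reg3b (adjusted p = 0.0671, edgeR). Sesn1, a stress-induced inhibitor of mTORC1 that FOXO factors turn on, fell from 42.82 ± 2.54 to 30.25 ± 2.95 CPM (-0.50, adjusted p = 9.17e-05, edgeR). The S6 kinase gene Rps6kb1 and Foxo6 had log2 fold changes of -0.25 and -0.56 (adjusted p = 0.00916 and 0.0271, edgeR). Of 20 other settings, 1 ended the call of Rps6kb1 and 7 that of Foxo6, among these the one without both WT mice of high Reg3b. The genes of this branch that moved include activators and inhibitors in both directions.

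The RAS-MAPK branch had 3 higher and 3 lower genes and 10 of 16 not called, with a median log2 fold change of 0.00. The feedback inhibitors Dusp6 and Spry1 rose, Dusp6 from 27.74 ± 2.27 to 39.04 ± 3.86 CPM (log2 fold change 0.49, adjusted p = 0.000197, edgeR) and Spry1 from 42.54 ± 3.0 to 55.66 ± 8.56 CPM (0.39, adjusted p = 0.00368, edgeR). The kinase gene Map2k2 rose by 0.24 on the log2 scale (adjusted p = 0.0151, edgeR), a call lost without WT replicate 4 (adjusted p = 0.0523, edgeR). Braf, which encodes a kinase of the cascade itself, fell from 20.63 ± 3.0 to 13.99 ± 2.86 CPM (-0.57, adjusted p = 0.00397, edgeR).

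**Figure D4:**
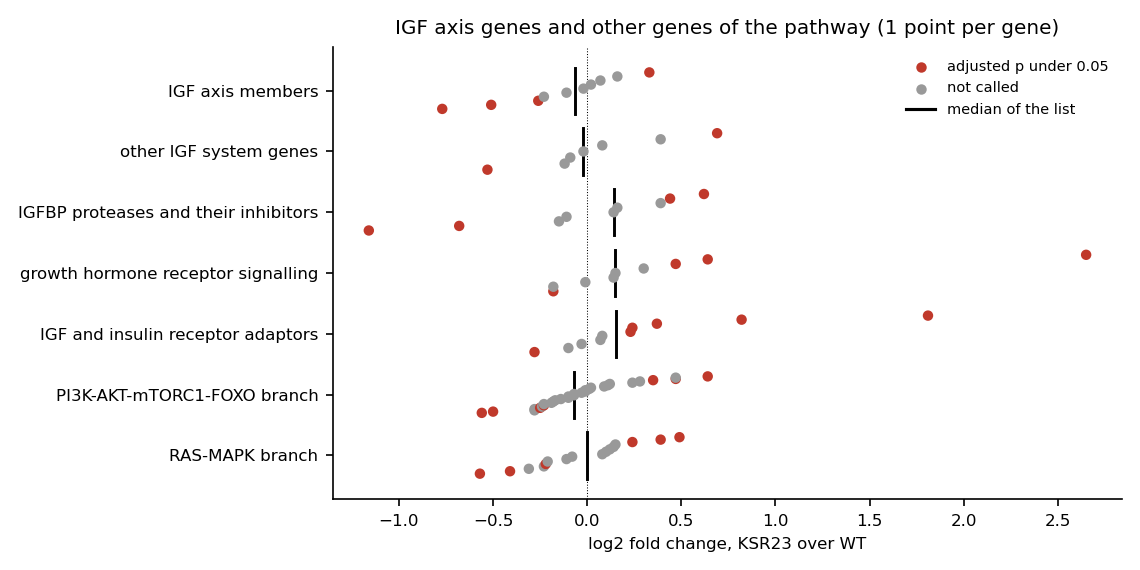
Log2 fold change, KSR23 over WT (x axis), of the 10 IGF axis genes and of the 81 tested genes in 6 lists of the pathway, 1 point per gene. Red points have an adjusted p under 0.05 in edgeR, grey points do not, and black lines are list medians. Points lie on both sides of 0 in each list, and Socs3 at 2.65 lies farthest out.

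Markers of the main epithelial cell types moved with the groups as well, though not evenly within a list. The markers of acinar cells, the enzyme-making cells of the pancreas, summed to 285400 to 307400 CPM in WT and 183200 to 226900 CPM in KSR23 mice, with 10 of 12 lower and 1 higher. Markers of islet endocrine cells summed to 8332 to 11600 and 5155 to 6510 CPM, with 8 of 10 lower and 1 higher. Those of duct cells summed to 1747 to 1892 and 2821 to 3111 CPM, with 9 of 10 higher. These 3 sums did not overlap between the groups. Their part in the changes of the axis was not tested. Defining markers such as Cel, Ins2 and Krt19 were present in every library. Krt19, named after its values were seen, was the duct marker not called. It was at 118.6 ± 9.17 CPM in WT and 114.7 ± 11.7 CPM in KSR23 mice (log2 fold change -0.05, adjusted p = 0.663, edgeR).

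Mesenchymal and stellate cells are known sources of IGF ligands and binding proteins, and their markers were summed beside the axis. The sums ran from 8967 to 11140 CPM in WT and from 8012 to 10400 CPM in KSR23 mice and overlapped. Of 12 markers 1 was higher, 2 were lower and 9 were not called, with a median log2 fold change of -0.05. Col3a1, the most abundant, was at 4425 and 4418 CPM. The lower markers, named after their values were seen, were Postn, which went from 544.4 to 366.2 CPM, and Lum, which went from 253.0 to 175.2 CPM. The higher marker, Pdgfrb, named in the same way, went from 25.05 to 31.86 CPM (log2 fold change 0.35, adjusted p = 0.00596, edgeR). Markers of smooth muscle cells and pericytes summed to 149.1 to 168.2 and 116.3 to 138.8 CPM without overlap, with 2 of 7 lower. Mesothelial markers summed to 214.9 to 260.8 and 171.8 to 239.9 CPM, with 2 of 5 lower. The part of these cells in the falls of Igf1 and Igfbp5 was not tested.

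Endothelial cells make IGFBP7. Their markers summed to 399.9 to 409.3 CPM in WT and 423.9 to 471.9 CPM in KSR23 mice without overlap. Of 10 markers 4 were higher and 2 lower, with a median log2 fold change of -0.01. Plvap, of fenestrated vessels and the most abundant, rose from 127.6 to 160.5 CPM and carried most of the rise in the sum. Pecam1 was at 69.24 and 67.37 CPM. Cdh5, named after its values were seen, fell from 24.06 to 17.38 CPM without overlap (log2 fold change -0.47, adjusted p = 0.000218, edgeR). The part of endothelial cells in the rise of Igfbp7 was not tested.

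Macrophages can make IGF1. Their markers summed to 282.3 to 338.7 CPM in WT and 322.7 to 463.7 CPM in KSR23 mice, with 6 of 8 higher and 1 lower. C1qb rose from 54.56 to 95.1 CPM, and C1qa, which encodes a chain of the same complement protein, fell from 94.07 to 54.07 CPM. The part of macrophages in the fall of Igf1 was not tested. Neutrophil markers summed to 11.4 to 41.72 and 38.72 to 390.5 CPM, with 4 of 6 higher, and KSR23 replicate 3 held the highest sum. Without that library Igf1 had a log2 fold change of -0.80. Lymphocyte markers summed to 7.583 to 9.17 and 5.627 to 7.831 CPM, with 1 of 6 tested higher and 1 lower, and those of Schwann cells to 35.26 to 41.02 and 29.04 to 39.66 CPM, with 1 of 5 lower. Of 7 erythroid markers, the 4 globin genes Hba-a1, Hba-a2, Hbb-bs and Hbb-bt were listed at 0 counts in all 10 libraries, and 0 of the other 3 were called.

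Liver and fat, both known for IGF1 output, lie close to the pancreas at dissection. The defining liver gene Alb was at 4.525 and 2.485 CPM, while Ttr, which islets also express, made up nearly all of the liver sum of 145.3 to 182.3 CPM in WT and 38.18 to 48.83 CPM in KSR23 mice. Of the 3 tested liver markers 2 were lower. Fat markers summed to 87.0 to 129.6 and 29.44 to 56.92 CPM without overlap, and Fabp4, which endothelial cells and macrophages also make, carried nearly all of this sum (93.43 CPM in WT and 37.24 CPM in KSR23 mice). Fabp4 was the only fat marker of 5 that could be tested and fell by 1.33 on the log2 scale (adjusted p = 6.09e-07, edgeR). Adipoq, which defines fat cells, was at 0.8712 to 8.781 CPM in WT mice and at 0 to 3.437 CPM in KSR23 mice, with ranges that overlapped. The part of fat in the fall of Igf1 was not tested.

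The genes whose mouse-to-mouse pattern was most like that of a called member were found by Pearson correlation of log2 CPM over the 10 libraries, after each group's mean was taken out. For Igf1 these were Bbs7 (r = 0.964), Bnip2 (r = 0.964) and Cd59b (r = 0.957). For Igfbp5 they were Slc12a4 (r = 0.969), Fstl1 (r = 0.926) and Ugdh (r = 0.913), and for Igfbp7 they were Aprt (r = 0.947), Bcl2a1b (r = 0.936) and Hoxb6 (r = 0.934). Fstl1, a secreted protein of mesenchymal cells, was lower in KSR23 mice along with Igfbp5 (log2 fold change -0.32, adjusted p = 0.00109, edgeR). Bbs7, Bnip2, Slc12a4 and Hoxb6 were not called. The log2 fold change of Slc12a4, the closest to Igfbp5, was 0.19 (adjusted p = 0.0861, edgeR). The values of 1 library share its depth and tissue makeup, each name was picked as one of the highest over all genes tested, and Cd59b and Bcl2a1b have near copies, so these names are a description.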

How the data were processed

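Whole pancreas of 5 WT and 5 KSR23 pups (P5) was compared; jejunum was not analysed here. Libraries were made from 100 pg of total RNA (SMART-Seq v4, oligo-dT primer) with PCR and no molecular identifiers, so counting error understates the error of a level. The authors aligned single-end 75-base reads to mm10 with TopHat2 2.1.0, and the values they deposited are raw gene counts from HTSeq 0.6.1p1, without normalization (versions from the submitters' processing notes). The annotation and strand setting are not given in the sources used here. The 5 tallies given to no gene were kept out.

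Of 24062 genes, 13882 had 5 or more counts in each library and entered the test, and all 10 members were among them. Groups, taken from the labels, were compared with edgeR 4.0.16 (R 4.3.3; TMM scaling, quasi-likelihood F test, Benjamini-Hochberg adjustment over all genes kept, threshold 0.05). Single genes were also compared by a two-sided exact permutation test over the 252 splits of the 10 mice. The labels do not say how replicates were obtained, but the study calls them biological replicates, and p-values measure the spread between these samples. The test was also run on counts simulated gene by gene, and its outcome there is not reported here. Positions are from GENCODE M21 on GRCm38 and upstream windows from RefSeq on GRCm38.p6.

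The members, the pathway and marker lists and the tests were chosen with earlier results of these data known. Named were all members, the called genes with the 4 smallest adjusted p in each direction of each pathway list, Insr, Igfbp1, Igfals and Ghr, at most 2 markers of highest level per list, label checks, and the 3 genes most like each of 3 called members. Neighbouring and overlapping genes (H19, Ins2, Airn, Polr2b, Gm49394, Igf2os), Jak2, Stat5a, Stat5b, Irs1, Postn and Lum were added after their values were seen. So were Pdgfrb, Cdh5 and Krt19. The values of 3 pathway genes under this rule are not reported here. Of 208 list entries, 207 matched by symbol and 1 by a synonym. Alternatives were other scalings, filters and tests (DESeq2 1.42.0 among them), a replicate block, and each mouse left out in turn. Leaving out WT replicates 1 and 2 together was chosen after seeing the data.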

Additional observations from a re-analysis of the deposited data

Results flagged for a closer look

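Among 62 groups of 5 values tested for a mouse far from the others of its group (Dixon's test at the 95% level), 6 held one, and chance alone would give about 3.1. Of the axis itself, Igf2r stood at 19.84 CPM in KSR23 replicate 4 against 14.1 to 15.3 CPM in the other KSR23 mice. Igfbp6 in the same library was at 39.71 CPM against 33.4 to 35.19 CPM. Igfbp1 was at 0.2679 CPM (15 counts) in KSR23 replicate 5 against 0 to 0.05033 CPM. Among label checks, Il12b, which encodes the subunit that IL-23 shares with IL-12, was at 0.2404 CPM (7 counts) in WT replicate 2 against 0 to 0.06454 CPM in the other WT mice. KSR23 replicate 3, the smallest library, held a sum of neutrophil markers of 390.5 CPM against 38.72 to 91.29 CPM, and a sum of erythroid markers of 188.0 CPM against 22.52 to 42.1 CPM in the other KSR23 mice.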

How the results depend on the processing

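Each result was recomputed under 20 alternatives. The number of genes called in the whole table ranged from 3321 to 4652 (3497 to 4173 with 1 mouse left out), the number of called members from 3 to 5, and that of other pathway genes from 24 to 32. Igf1, Igfbp5 and Igfbp7 kept their direction and call in all of them. Igf2 lost its call in 4 and Igfbp6 gained one in 5. Of the 28 other pathway genes called that the naming rule covers, 9 lost their call in at least 1 alternative, Ghr in 11. Among genes that were not called, signs turned for Igfbp4 under scaling by the library total (0.08) and without both WT mice of high Reg3b (0.02), for Igfbp2 without those mice (0.05), and for Igf2r with upper quartile scaling (-0.01); the cause was not tested. With 1 mouse left out, the log2 fold change ranged from -0.06 to 0.02 for Igfbp4 and from -0.09 to 0.05 for Igf2r. The groups share replicate numbers 1 to 5, but mice with the same number did not deviate together (correlations of -0.111 to 0.066), so the numbers do not pair the mice. With the replicate number as a block, 3749 genes were called, 1998 higher and 1751 lower, and 4 members, 1 higher and 3 lower. Igfbp1 had too few counts to be tested, and 5 mice per group leave intervals on the log2 scale wide enough to hold small changes of the uncalled members.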
